A study of Homo sapiens with 6 samples.

Results

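The 41 genes described here encode proteins of DNA damage signalling and repair. They were chosen by gene symbol, for what their proteins do, from the 50868 genes of the deposited expression table, and the rule uses no measured value, although earlier results of these data were known. RNA was sequenced from B4G12, an immortalised clonal line of human corneal endothelial cells, which line the inner face of the cornea and keep it clear by pumping fluid. In 3 libraries the cells had been given a control siRNA (siControl, genotype labelled WT), and in the other 3 an siRNA against NAMPT (siNAMPT, genotype labelled NAMPT knockdown). All 6 libraries came from siRNA-treated cells of the same line. No dose or time is given here, and nothing in the labels ties replicates to separate cultures. The p-values therefore refer to the spread among these libraries alone, and that spread may be technical.

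NAMPT makes nicotinamide mononucleotide, the precursor from which most cells regenerate NAD. NAD is in turn consumed by the poly(ADP-ribose) polymerases that mark broken DNA. NAMPT itself fell in the siNAMPT libraries, from 164, 170 and 184 CPM (read counts scaled by library size, with TMM factors between libraries) to 26.7, 29.1 and 29.7 CPM, a log2 fold change of −2.60 (SE 0.07, adjusted p = 2.60e-06). An exact two-sided permutation test of its 6 values gave p = 0.1, the smallest p that 3 libraries against 3 can give. The deposited counts summed to between 19510796 and 22364717 per library. Of the 9 markers chosen for corneal endothelium, 5 (COL8A1, COL8A2, ZP4, AQP1 and SLC4A4) averaged under 0.1 FPKM in both groups, while SLC4A11 stood at 5.32 FPKM in siControl. The epithelial keratins KRT5 and KRT14 stood at 236 and 544 FPKM in siControl, so the libraries carried strong keratin expression beside the labelled cell type. Some markers moved with the knockdown: KRT15 rose 3.60-fold (log2 fold change 1.85, adjusted p = 2.60e-06), KRT5 rose by 0.25 and KRT14 fell by 0.30 on the log2 scale, and CDH2 of the endothelial list fell by 0.92. The 5 epithelial markers summed to 4034 to 4390 CPM in siControl and 4735 to 5342 CPM in siNAMPT, and their part in the changes of the repair genes was not tested. In bulk RNA, fewer cells of a kind and less RNA per cell cannot be told apart.

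Cells repair DNA by routes that differ in the lesion they treat. Double-strand breaks are sensed by the MRE11-RAD50-NBN complex and the kinases ATM and ATR, and are then rejoined directly (end joining) or copied from the sister chromatid (homologous recombination), which is limited to the S and G2 phases. Mismatches left by replication, single damaged bases, bulky adducts and interstrand crosslinks each have a machinery of their own: mismatch repair, base excision repair, nucleotide excision repair and the Fanconi anaemia pathway. Translesion polymerases copy past damage without removing it. Several of these genes, above all those of homologous recombination, are transcribed mainly in cycling cells.

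All 41 members passed the filter on low counts. Of these, 17 were lower in siNAMPT at an adjusted p under 0.05 (41.5%), against 21.9% lower among all 15213 genes tested, and 4 were higher (9.76%), against 20.8% among all genes. Together 21 of the 41 were called, against 42.7% of all genes tested, and 20 did not pass the threshold. The median log2 fold change of the members was −0.25, and that of all genes tested was 0.00. In 21 members every siNAMPT library lay below every siControl library, and in 4 every siNAMPT library lay above. Those outcomes applied to 27.7% and 27.2% of all genes tested. Changes were mostly modest: 2 members (LIG3 and LIG4) fell by at least 2-fold, against 3.79% of all genes tested. None rose by as much, against 4.49% of all genes, and the largest rise of a member, that of XPC, was 1.56-fold. The 23 double-strand break genes (signalling, homologous recombination, helicases and nuclease, and end joining) held 11 of the 17 members that fell. None of them rose, and their share lower was 47.8%, against 41.5% of all members. All 3 crosslink genes fell, whereas 2 of the 4 nucleotide excision genes rose and none fell. In 114 other genes of these routes the shares lower were 33.3% in signalling, 21.1% in homologous recombination and 20% in end joining. They were 50% in helicases and nuclease, 42.9% in crosslink, 46.2% in base excision and 35.3% in nucleotide excision. Mismatch had 0% and translesion 50%. The difference between routes was not tested.

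**Figure D1:**
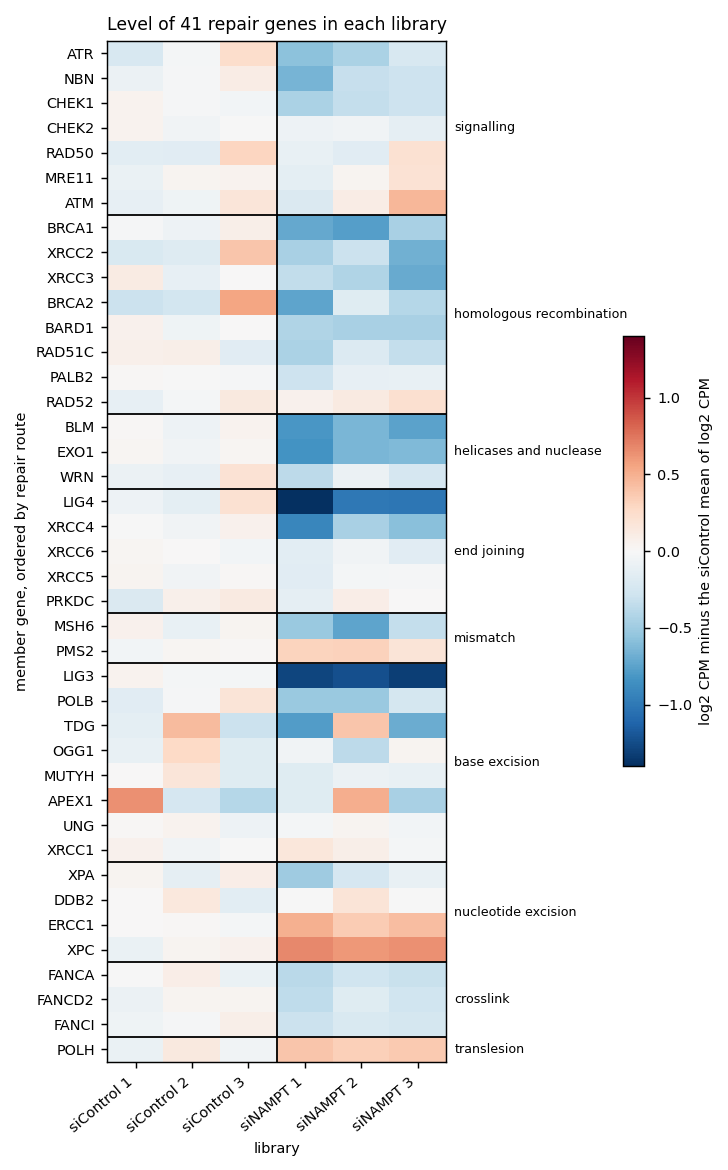
Level of each of the 41 members (rows, grouped by repair route) in each of the 6 libraries (columns), as log2 CPM minus the siControl mean. LIG3 and LIG4 are the darkest rows in the siNAMPT columns, XPC and ERCC1 are raised in all 3 siNAMPT libraries, and APEX1 and TDG vary between libraries of the same group.

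Expression per unit of gene length was spread widely over the members. In siControl the mean FPKM (fragments scaled by gene length and library size) ran from 0.524 for RAD52, which anneals single strands, to 173 for XRCC6, the Ku70 subunit of the Ku ring that clasps broken ends. Its partner XRCC5 (Ku80) stood at 39.1 FPKM and the catalytic subunit PRKDC, the kinase that Ku recruits, at 39.4 FPKM. UNG, the uracil glycosylase (18.8 FPKM), FANCI (15.9 FPKM) and EXO1 (10.3 FPKM) followed. The other members lay under 10 FPKM, and 4 of them, ATM, BRCA2, OGG1 and RAD52, were under 1 FPKM in siControl. FPKM here divides by a length that for some members is long (24233 bases for BRCA1 and 32504 for ATM, as implied by the deposited values), which lowers their FPKM. Even so, the smallest count of any member in any library was 122, for LIG4.

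The break sensors and checkpoint kinases split into members that fell and members that stayed near their control level. ATR, the kinase that answers stalled replication forks, was at 81.0, 92.7 and 112 CPM in siControl and at 63.2, 69.4 and 80.7 CPM in siNAMPT. The lowest siControl library lay only just above the highest siNAMPT library, and the log2 fold change was −0.42 (SE 0.14, adjusted p = 0.0390). That call was lost without siControl replicate 2 (adjusted p = 0.0740) or 3 (0.104) without siNAMPT replicate 1 (0.112) or 2 (0.102), and with limma on log2(FPKM + 1) (0.0657) or log2(FPKM + 0.1) (0.0654). CHEK1, the kinase that ATR activates, was at 43.8, 41.9 and 41.1 CPM in siControl and at 31.0, 33.6 and 34.5 CPM in siNAMPT, a fall of 21.8% (adjusted p = 0.0058) with no overlap between the groups. For ATM, the kinase of the double-strand break response, siNAMPT gave 25.7, 31.7 and 40.8 CPM around the siControl values of 27.4, 28.3 and 33.3 CPM. The ATM groups overlapped, the log2 fold change was 0.14 (SE 0.17), and CHEK2, its downstream kinase, had −0.08 (SE 0.07).

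Within the MRE11-RAD50-NBN complex, NBN, the subunit that brings ATM to the break, was the member that fell. It was at 60.2, 62.7 and 68.3 CPM in siControl and at 40.4, 51.0 and 52.2 CPM in siNAMPT (log2 fold change −0.41, SE 0.11, adjusted p = 0.0187), and without siControl replicate 3 the adjusted p was 0.0578. With trends in GC content and length removed, the log2 fold change of NBN was −0.27. MRE11, the nuclease, had a log2 fold change of 0.04 (SE 0.10), and RAD50, the tethering ATPase, −0.02 (SE 0.15). The FPKM ratio of NBN to MRE11 was 1.13 ± 0.0427 in siControl and 0.823 ± 0.0478 in siNAMPT (SD, n = 3 each), with no overlap between the groups. The ratio of RAD50 to MRE11 overlapped between them (0.706 ± 0.112 and 0.677 ± 0.0605).

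**Figure D2:**
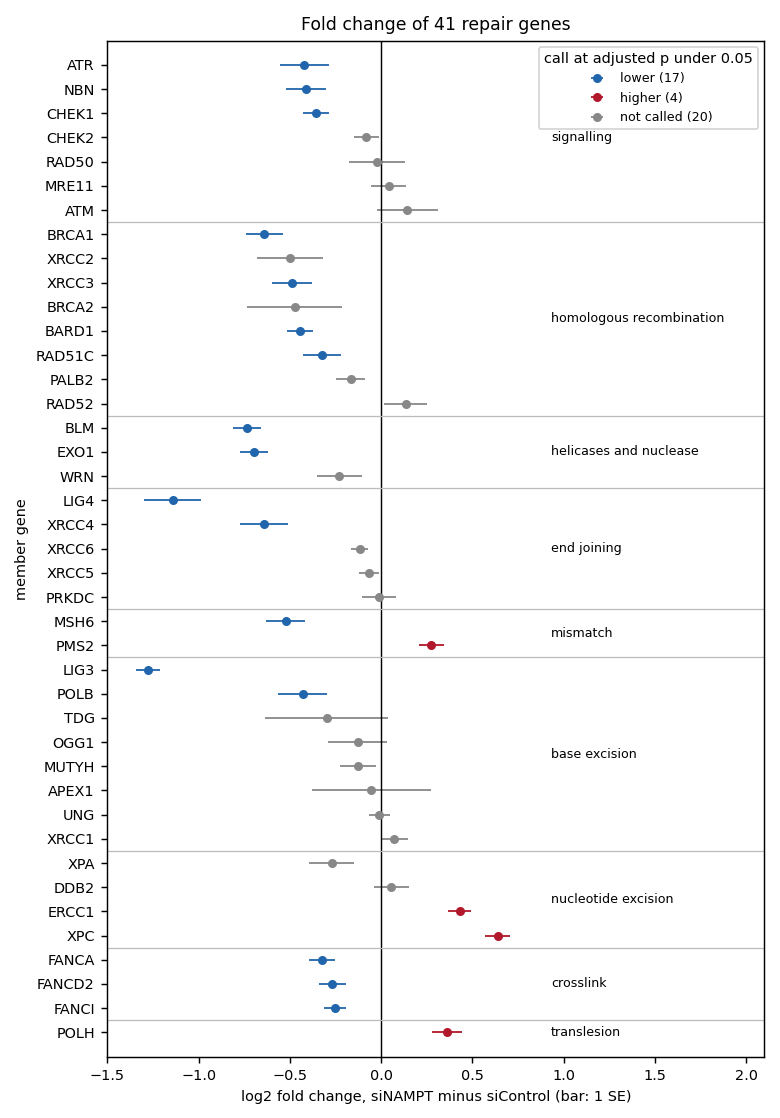
Log2 fold change of each member, siNAMPT minus siControl, with 1 SE, grouped by repair route and coloured by call. The 17 called lower lie to the left of 0, the 4 called higher (XPC, ERCC1, POLH and PMS2) to the right, and the widest bars belong to TDG and APEX1.

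In homologous recombination 4 of 8 members fell and none rose, with a median log2 fold change of −0.46. BRCA1, the scaffold that commits a break to recombination, was at 46.1, 44.4 and 49.2 CPM in siControl and at 28.3, 27.3 and 34.1 CPM in siNAMPT. That is a fall of 35.8% (log2 fold change −0.64, SE 0.10, adjusted p = 0.0019). Its ring-finger partner BARD1 fell from 24.3, 22.4 and 23.4 CPM to 17.5, 17.1 and 17 CPM (log2 fold change −0.44, SE 0.07, adjusted p = 0.0024). For this pair the groups did not overlap. The coefficient of variation of BRCA1 in siNAMPT was 12.2%, above the members' median of 7.72%, and that of BARD1 was 1.49%. The BARD1 to BRCA1 ratio of FPKM overlapped between groups (1.07 to 1.18 in siControl, 1.12 to 1.41 in siNAMPT).

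PALB2 links BRCA1 to BRCA2. It was lower in every siNAMPT library, at 22.2, 25.2 and 25.4 CPM against 27.7, 27.3 and 26.9 CPM, and did not pass the test (log2 fold change −0.17, SE 0.08, adjusted p = 0.121). BRCA2, which loads the recombinase onto single strands, was at 8.09, 8.35 and 14.6 CPM in siControl and at 5.99, 8.84 and 7.58 CPM in siNAMPT, and siControl replicate 3 stood apart from the other two. Its log2 fold change of −0.47 had an SE of 0.26 (adjusted p = 0.179), and without that library it was −0.14 (adjusted p = 0.578). Among the recombinase paralogs, XRCC3 fell from 47.3, 40.3 and 44.0 CPM to 34.4, 32.7 and 26.9 CPM (log2 fold change −0.49, SE 0.11, adjusted p = 0.0096). XRCC3 shares 76.7% of its annotated exonic bases with KLC1 on the opposite strand, and KLC1 rose by 0.19, so reads of the pair cannot be told apart if counting ignored strand.

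The paralog RAD51C had a log2 fold change of −0.32 (SE 0.10, adjusted p = 0.0381), with siControl at 22.9, 23.2 and 19.5 CPM and siNAMPT at 16.1, 19.0 and 17.4 CPM. Its adjusted p was 0.111 without siControl replicate 1, 0.123 without siControl replicate 2, 0.107 without siNAMPT replicate 1 and 0.0932 without siNAMPT replicate 3. It was 0.0514 with no filter on low counts, and 0.0643 and 0.0670 with limma on log2(FPKM + 1) and log2(FPKM + 0.1). XRCC2, at 20.1, 20.6 and 30.6 CPM in siControl against 17.02, 18.9 and 14.6 CPM, did not pass (log2 fold change −0.50, SE 0.18, adjusted p = 0.0580). It passed without siControl replicate 1 (adjusted p = 0.0457) and with DESeq2 (0.0277), whereas without siControl replicate 3, its highest library, the log2 fold change was −0.28 (adjusted p = 0.131). RAD52 had a log2 fold change of 0.13 (SE 0.12).

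Among the 8 homologous recombination members and the 3 helicases and nuclease, BLM and EXO1 had the largest falls. BLM (ENSG00000197299, chr15:90717327-90816165 in GRCh38), the helicase that unwinds recombination intermediates, was at 36.2, 34.2 and 37.1 CPM in siControl and at 20.3, 23.1 and 21.2 CPM in siNAMPT, a fall of 39.9% (log2 fold change −0.74, SE 0.08, adjusted p = 3.46e-04). EXO1, the exonuclease that resects break ends and also serves mismatch repair, fell from 69.6, 66.2 and 69.8 CPM to 38.4, 43.9 and 44.5 CPM (log2 fold change −0.70, SE 0.08, adjusted p = 4.11e-04). For both genes the gap between the groups exceeded the range within either group. The related helicase WRN had a log2 fold change of −0.23 (SE 0.12, adjusted p = 0.171), with overlapping groups.

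Of the 5 end joining members, 2 fell and none rose. LIG4 (ENSG00000174405, chr13:108207439-108218368 in GRCh38), the ligase that seals the break, was at 14.2, 13.5 and 17.1 CPM in siControl and at 5.49, 7.41 and 7.36 CPM in siNAMPT, a fall of 54.7% (log2 fold change −1.14, SE 0.16, adjusted p = 0.0011). Its stabilising partner XRCC4 fell from 14.3, 14.01 and 15.01 CPM to 7.65, 10.5 and 9.65 CPM (log2 fold change −0.64, SE 0.13, adjusted p = 0.0066). The FPKM ratio of LIG4 to XRCC4 was lower in every siNAMPT library, at 0.295 ± 0.0122 against 0.417 ± 0.0397 (SD, n = 3 each). The genes that bind and bridge the ends, which are far more abundant, did not pass: XRCC5 had a log2 fold change of −0.07 (SE 0.06), XRCC6 −0.12 (SE 0.05) and PRKDC −0.01 (SE 0.09). XRCC6 was nevertheless lower in every siNAMPT library (800, 855 and 792 CPM against 902, 890 and 862 CPM), and it passed without siNAMPT replicate 2 (adjusted p = 0.0434) and with trends in GC content and length removed (0.0329). A copy of XRCC6, XRCC6P2, held 2492 counts in all, and reads may have been shared with it.

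**Figure D3:**
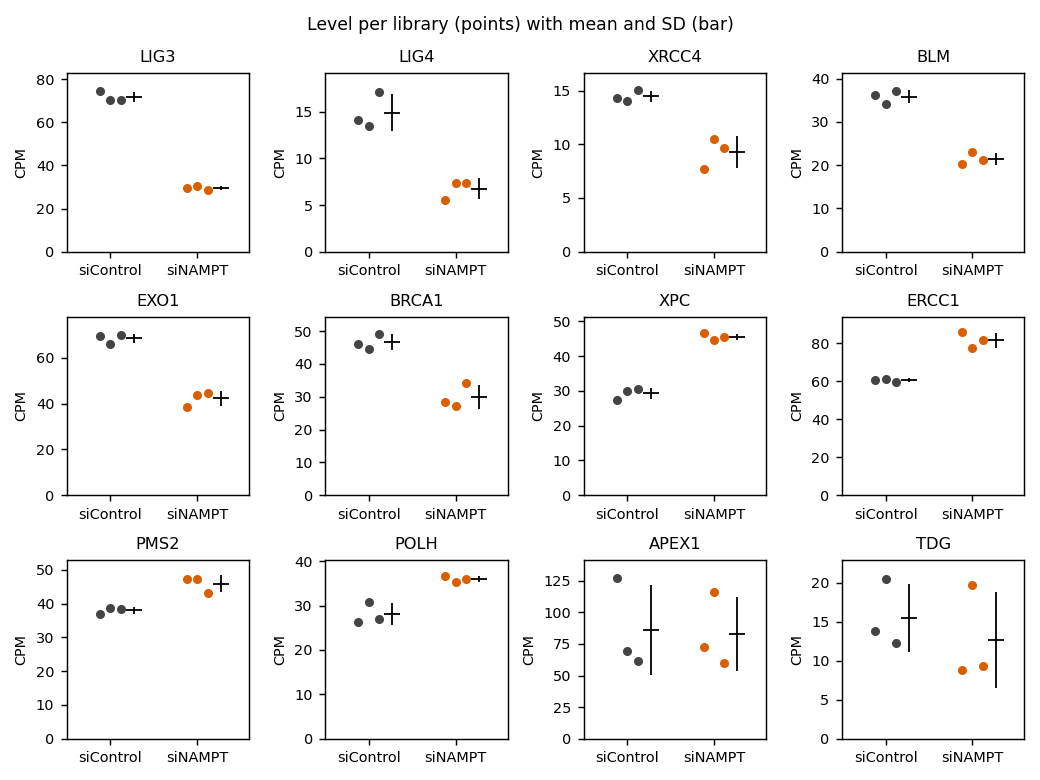
CPM of 12 members in each library (points) with the group mean and SD (bar), each axis starting at 0. In the panels of LIG3, LIG4, XRCC4, BLM, EXO1 and BRCA1 all siNAMPT points lie below the siControl points, in those of XPC, ERCC1, PMS2 and POLH above them, and in those of APEX1 and TDG the groups overlap.

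Of the base excision genes, 2 of 8 fell (25%, near the 21.9% lower over all genes tested) and none rose. LIG3 (ENSG00000005156, chr17:34980494-35009743 in GRCh38), the ligase that finishes short-patch repair in the nucleus and in mitochondria, had the largest fall of the 41 members. It was at 74.3, 70.3 and 70.5 CPM in siControl and at 29.4, 30.6 and 28.7 CPM in siNAMPT (log2 fold change −1.28, SE 0.06, adjusted p = 1.84e-05), or 58.8% lower. Its scaffold partner XRCC1, at 37.3, 34.6 and 35.7 CPM against 39.9, 37.9 and 35.3 CPM, had a log2 fold change of 0.07 (SE 0.07). The FPKM ratio of LIG3 to XRCC1 was therefore 0.596 ± 0.00866 in siControl and 0.234 ± 0.0127 in siNAMPT (SD, n = 3 each). Annotated exons of LIG3 overlap RFFL on the opposite strand over 29.1% of their length, and RFFL had a log2 fold change of −0.07.

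POLB, the polymerase that fills the gap, was at 9.78, 10.8 and 12.4 CPM in siControl and at 7.65, 7.62 and 9.21 CPM in siNAMPT (log2 fold change −0.43, SE 0.13, adjusted p = 0.0358). The call was lost without siControl replicate 2 (adjusted p = 0.0765) or 3 (0.109), without siNAMPT replicate 1 (0.0929) or 2 (0.0990), and on the log2(FPKM + 0.1) scale (0.0501). UNG, which removes uracil, was steady at 113 to 124 CPM in siControl and 116 to 122 CPM in siNAMPT. The glycosylases OGG1 and MUTYH, which deal with oxidised guanine, had log2 fold changes of −0.13 (SE 0.16) and −0.13 (SE 0.10).

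APEX1 and TDG varied widely between libraries of the same group. APEX1, the endonuclease that cuts at abasic sites, was at 127, 69.2 and 61.6 CPM in siControl and at 72.7, 116 and 59.7 CPM in siNAMPT. One library in each group was high, and the coefficient of variation was 41.6% in siControl, a value exceeded by only 1.39% of the 9733 genes with at least 10 CPM. TDG, the thymine glycosylase, was at 13.8, 20.5 and 12.3 CPM in siControl and at 8.82, 19.8 and 9.34 CPM in siNAMPT, replicate 2 being the highest in both groups. Without siNAMPT replicate 2, TDG was called lower (log2 fold change −0.77, adjusted p = 0.0446), whereas all 6 libraries gave −0.30 (SE 0.34). APEX1 had −0.05 (SE 0.33) with all 6 libraries and 0.34 without siControl replicate 1.

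In nucleotide excision repair 2 of 4 members rose and none fell. XPC (ENSG00000154767, chr3:14145147-14178783 in GRCh38), which finds helix distortions across the genome, was at 27.4, 30.0 and 30.4 CPM in siControl and at 46.6, 44.6 and 45.4 CPM in siNAMPT, a rise of 55.6% (log2 fold change 0.64, SE 0.07, adjusted p = 4.00e-04). ERCC1, a subunit of the nuclease that cuts on the 5′ side of the lesion, rose from 60.8, 61.3 and 59.5 CPM to 85.7, 77.4 and 81.5 CPM (log2 fold change 0.43, SE 0.06, adjusted p = 0.0014). Both genes had groups that were well apart. ERCC1 shares 28.6% of its annotated exonic bases with CD3EAP on the opposite strand, which had a log2 fold change of −0.28 and was not called. DDB2, which hands ultraviolet lesions to XPC, had a log2 fold change of 0.06 (SE 0.10), and the FPKM ratio of XPC to DDB2 was 0.992 ± 0.129 in siControl and 1.48 ± 0.136 in siNAMPT (SD, n = 3 each). XPA, the damage verifier, had −0.27 (SE 0.12, adjusted p = 0.117).

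POLH, the translesion polymerase that copies past ultraviolet dimers, rose as well, from 26.2, 30.8 and 27.03 CPM to 36.6, 35.3 and 36.1 CPM (log2 fold change 0.36, SE 0.08, adjusted p = 0.0095). POLH, XPC and DDB2 are known as p53-responsive genes. In a list of 15 other p53 targets, 4 rose (26.7%, against 20.8% of all genes tested) and 6 fell (40%, against 21.9%). The median log2 fold change of the list was 0.03. BTG2 (1.51), BBC3 (1.07), SESN1 (1.06) and FDXR (0.36) rose. FAS (−1.93) and GADD45A (−1.36) fell most, and AEN (−0.65), RRM2B (−0.60), ZMAT3 (−0.57) and PLK3 (−0.50) fell too. CDKN1A, the main p53-induced cell cycle inhibitor, averaged 96.4 CPM in siControl and 98.6 CPM in siNAMPT. The part of p53 in the changes of POLH and XPC was not tested.

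The 2 mismatch repair members moved in opposite directions. MSH6, which recognises single mismatches, fell from 76.5, 68.3 and 75.4 CPM to 51.2, 43.9 and 58.0 CPM (log2 fold change −0.52, SE 0.11, adjusted p = 0.0066). PMS2, which nicks the strand to be replaced, rose from 36.9, 38.6 and 38.3 CPM to 47.2, 47.4 and 43.1 CPM (log2 fold change 0.27, SE 0.07, adjusted p = 0.0147). The call was lost without siControl replicate 1 (adjusted p = 0.0549). PMS2 has many near-identical copies, of which PMS2CL held 3348 counts in all and had a log2 fold change of 0.10, so its counts are uncertain.

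All 3 crosslink repair members fell slightly. FANCI and FANCD2 form the clamp that is ubiquitylated at a crosslink. FANCI went from 182, 189 and 202 CPM to 155, 165 and 161 CPM (log2 fold change −0.25, SE 0.06, adjusted p = 0.0108). FANCD2 went from 47.2, 51.6 and 51.6 CPM to 39.3, 44.5 and 41.2 CPM (−0.27, SE 0.08, adjusted p = 0.0242), and their FPKM ratio was 0.284 ± 0.0103 and 0.281 ± 0.00905 (SD, n = 3 each). The FANCD2 call was lost without siControl replicate 2 (adjusted p = 0.0779) or 3 (0.0696) and without siNAMPT replicate 1 (0.0622) or 3 (0.0703). FANCA, of the core complex that ubiquitylates the clamp, fell from 65.5, 69.8 and 61.4 CPM to 50.3, 53.9 and 52.7 CPM (log2 fold change −0.33, SE 0.07, adjusted p = 0.0085). FANCA overlaps ZNF276 on the opposite strand over 23.6% of its annotated exonic bases.

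Outside the 41, 114 other genes of the same routes were read in the same fit. Of these 39 were lower (34.2%) and 7 higher (6.14%), with a median log2 fold change of −0.10. The largest falls in signalling were those of CLSPN, the adaptor through which ATR reaches CHEK1, from 43.9, 49.3 and 56.0 CPM to 18.1, 20.1 and 20.0 CPM (log2 fold change −1.36, adjusted p = 8.88e-05), and of TOPBP1, the activator of ATR (−0.50). DNA2, the nuclease that resects beside EXO1, had −0.77, and RMI2, which works with BLM, −0.65. In the Fanconi route FANCB (−1.08) and DCLRE1B (−0.65) fell and FANCF (0.52) rose. The polymerases POLQ (−0.71) and POLK (−0.64) and the base excision nucleases APEX2 (−0.62) and FEN1 (−0.48) were lower, as was the XRCC4 partner NHEJ1 (−0.30). POLL, an end joining polymerase, rose (0.27). Nucleotide excision went both ways, with CETN2, a partner of XPC (0.64), and GTF2H3 (0.62) higher and ERCC6 (−0.54) and GTF2H4 (−0.75) lower.

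**Figure D4:**
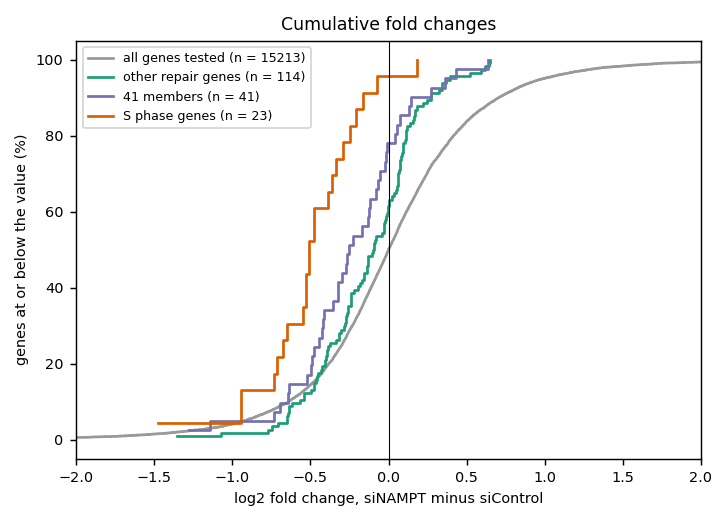
Cumulative share of genes (vertical axis, %) at or below each log2 fold change (horizontal axis) for all 15213 genes tested, the 114 other repair genes, the 41 members and 23 S phase genes. The members' curve lies to the left of that of all genes over most of the range, and the S phase genes lie farther left still.

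Genes of S phase were mostly lower too. Of 23 S phase genes in a list read beside the members, 19 were lower (82.6%) and none higher. Among all genes tested 21.9% were lower and 20.8% higher. The median log2 fold change of the list was −0.51. Its summed level was 4929 to 5344 CPM in siControl and 3721 to 4057 CPM in siNAMPT. PCNA, the replication clamp, had a log2 fold change of −0.53 and E2F1, a transcription factor of S phase entry, −0.67. MKI67, a proliferation marker in the same list, was not called (log2 fold change 0.18, SE 0.52). It stood at 195, 213 and 648 CPM in siControl and at 467, 532 and 201 CPM in siNAMPT. With that spread, the group means of 352 and 400 CPM say little about a change. The part of S phase expression in the falls of BRCA1, BLM, EXO1, CHEK1 and the Fanconi genes was not tested.

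The 3′ untranslated regions (UTRs) of the members were searched for ACCATA, a word earlier found in these data to be common in genes that fell. Of the 41 members 10 (24.4%) held it, close to the 22.4% of 12082 coding genes tested. Of these 10, 6 fell and none rose, against 11 lower and 4 higher of the 31 without it. Among all coding genes the share called lower was 39.6% with the word and 20.8% without it, but among the other repair genes it was 33.3% with the word and 33.7% without it. Because the word was picked from these same data, the shares over all coding genes repeat that earlier result and lend it no independent support. UTR length was not taken into account. The longer form TACCATA was found in 5 members, 4 of which fell, and in 7.76% of coding genes. Of the 938 coding genes with that form 48.5% were lower, and of 6 other repair genes with it 4 were lower and 2 higher. Both members that fell by at least 2-fold held the word, LIG3 3 times and LIG4 once. NBN, BARD1, BRCA1, LIG3, LIG4 and MSH6 are the 6 that fell, and DDB2, MRE11, RAD50 and RAD52 the 4 not called. The sites of 5 that fell follow because they show which form each gene holds, with MRE11 and RAD52 as members that held a site and were not called. Capitals mark TACCATA where it is complete, ACCATAA where the word is followed by A and not preceded by T, and otherwise ACCATA, in the sense strand of GENCODE 29 transcripts.
LIG3, the first site: ctctccttTACCATActactggac
LIG3, the second site: agactttgTACCATAtcccattct
LIG3, the third site: catcaggacACCATAtggttgtaa
LIG4: tatctcatgACCATAttgaaatgt
MSH6: cacattttTACCATAttacaaaag
BARD1, the first site: aaatgtgccACCATAggtgttaaa
BARD1, the second site: aaaatgaacACCATAgcaccaaac
BARD1, the third site: taatacttTACCATAtctatctca
BRCA1: gttgctgaaACCATAcagcttcat
MRE11: tgcagtaaTACCATAattagcctt
RAD52: cccaccttgACCATAAattggctt
The sites of LIG3 lie on chromosome 17 at chr17:35004538-35004561, chr17:35005304-35005327 and chr17:35006672-35006695 (plus strand), and that of LIG4 at chr13:108207577-108207600 (minus strand), in GRCh38. LIG3 holds its first site 41 bases into a 3′ UTR of 5237 bases, and LIG4 its only site at base 942 of 1094. MSH6 holds its site at chr2:47807706-47807729, BRCA1 at chr17:43044493-43044516, MRE11 at chr11:94417447-94417470 and RAD52 at chr12:912098-912121. The 3 sites of BARD1 lie at chr2:214728197-214728220, chr2:214727065-214727088 and chr2:214726233-214726256. The complete TACCATA is thus present both in LIG3, with a log2 fold change of −1.28, and in MRE11, with 0.04. LIG3 holds the word 3 times and MRE11 only once. The site of MRE11 is followed by A, so it also contains ACCATAA, which the capitals do not show. Members without the word also fell, among them BLM (−0.74), EXO1 (−0.70) and XRCC4 (−0.64). A match is a description of the sequence, and whether the word bears on the level of any member was not tested.

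**Figure D5:**
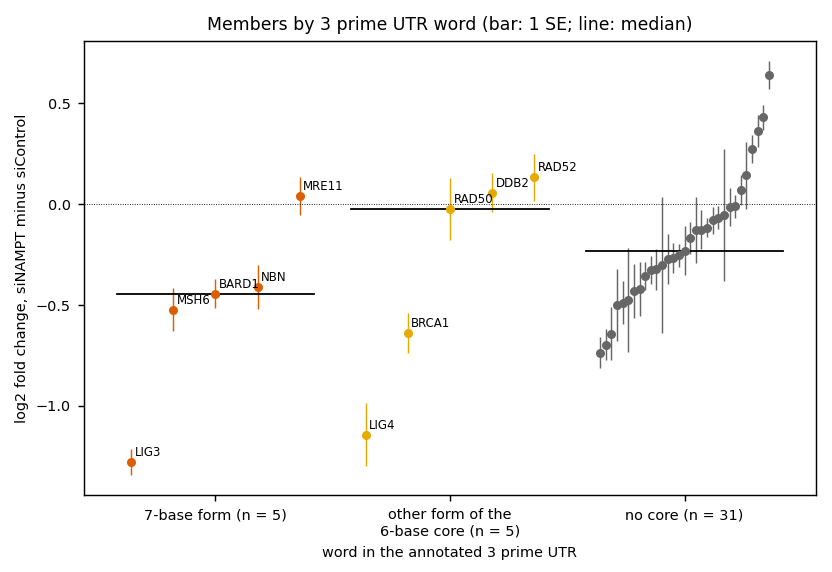
Log2 fold change with 1 SE of each member by the word in its 3′ UTR: the 7-base form TACCATA (5 members, median −0.44), another form of the 6-base core (5 members, median −0.02) or no core (31 members, median −0.23), the medians drawn as lines. RAD52, with ACCATAA, is in the second class. LIG3 and LIG4 are the lowest points of the first and second class.

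Promoters from RefSeq (GRCh38.p14, 250 bases before to 50 after the start) were matched for 35 of the 41 members. They were searched on both strands for TTTCCCGC, TTTGGCGC, TTTGCCGC and TTTCGCGC, words bound by E2F factors, which drive S phase genes. One of these stood in 8 of the 35 (22.9%), against 3.33% of all 27305 promoters and 5.32% of those of genes tested. Of the 8 members 4 fell (EXO1, FANCA, FANCD2 and MSH6), 2 rose (PMS2 and XPC) and 2 were not called (XRCC2 and XRCC6), and 10 of the 27 without a word fell. Over all genes tested the share lower was 27.2% with a word and 23.7% without one. The words in 2 members that fell and 2 that rose are shown in capitals to set them side by side.
EXO1: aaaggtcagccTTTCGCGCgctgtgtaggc
MSH6: ctccccccagaTTTCCCGCcagcaggagcc
XPC: cctgcgcccTTTCCCGCctctcgcgaga
PMS2: cgggaagtattTTTGCCGCcccgcccggaa
These windows lie at chr1:241848197-241848226 (plus strand), chr2:47783137-47783166 (plus strand), chr3:14178824-14178851 (minus strand) and chr7:6009131-6009160 (minus strand). The median log2 fold change was −0.30 for the 8 members with a word and −0.17 for the 27 without one. Whether the words bear on the level of any member was not tested.

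Across the 41 members the log2 fold change was higher with a higher share of G and C in the annotated transcript (Pearson r = 0.39, Spearman rho = 0.47). Its relation to gene length was weaker (r = −0.21, rho = −0.22). Over all genes tested the same r were 0.06 and −0.06. The members share libraries and depth, so these values are descriptions. When trends with GC content and length were removed within each library, 18 members were lower and 4 higher. The members' median log2 fold change was then −0.23, against −0.25 in the main fit.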

How the data were processed

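The data are mRNA sequencing libraries, per the labels' protocols, 3 from siControl and 3 from siNAMPT cells, grouped by their titles. The authors deposited whole-number counts per gene and library without normalization, per the file headers. FPKM was deposited beside the counts. The gene length implied by count, FPKM and library total was compared across the 6 libraries, for genes above a count minimum in every library. It agreed within 1% in 100% of those genes. No independent gene length was used. The aligner, counter and strand setting were not given in the sources used here. Both GRCh38 and mm10 appear among builds in the submitters' processing notes. The gene IDs are human, and all 41 members have the same position in GENCODE 29 (GRCh38).

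The main test was that of edgeR 4.0.16 (R 4.3.3) on the counts (filterByExpr, TMM, quasi-likelihood test, two-sided, no covariate), with Benjamini-Hochberg adjustment over all 15213 genes and a threshold of 0.05. It was also run on simulated data, and that outcome is not reported here and lends the calls no support. The SE is the log2 fold change divided by the root of F. UTRs come from 1 coding transcript per gene in GENCODE 29, at least 50 bases long. Where a symbol had 2 rows, the row with more counts was used. Members and gene lists were chosen with earlier results of these data known. All members may be named, and of the other repair genes up to 2 per direction and route with a mean of at least 1 FPKM, with the largest changes past the threshold, while genes of the marker, S phase and p53 lists stand beside a result as levels. Alternatives were DESeq2 1.42.0, its size factors, no filter, limma 3.58.1 on log2(FPKM + 1) and log2(FPKM + 0.1) for genes of at least 1 FPKM in 3 libraries, the replicate number as a block, leaving out each library, and, chosen after seeing the data, an offset for trends with GC content and length. Values of some genes in the lists are not reported here.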

Additional observations from a re-analysis of the deposited data

How the results depend on the processing

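Of the 21 members called, 15 kept the call in all 13 alternative fits and 6 (ATR, NBN, RAD51C, PMS2, POLB and FANCD2) lost it in at least 1. None of the 21 changed sign. Leaving out each library gave 13 to 17 members lower and 3 to 4 higher. Leaving out the 10 members with ACCATA in the 3′ UTR gave 11 lower, by construction from fewer genes. With the offset for GC content and length, 12 of the other repair genes were higher in place of 7; the cause was not tested. That fit covered 12415 genes.

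The replicate number as a block gave 17 members lower and 4 higher, the same 21 genes, and 3273 and 3063 of all genes. Same-numbered libraries deviated together with correlations of 0.0894, −0.000334 and 0.0713, so the numbers were not taken as pairs. Of the siControl libraries, 1 and 3 correlated best with their own number and 2 did not.

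Among members not called, 8 changed sign in at least 1 alternative. On log2(FPKM + 1) and log2(FPKM + 0.1), RAD50 had 5e-04 and 0.0017, PRKDC 0.0092 and 0.0095, and UNG 0.0087 and 0.0091; RAD50 had 0.0355 with the offset. Adding 1 to the FPKM also moved called low-FPKM members towards 0 by over 1.5 times, as that scale does by construction: LIG4 had −0.50, BRCA1 −0.38, BARD1 −0.27, POLB −0.24 and RAD51C −0.19. Leaving out libraries gave log2 fold changes of −0.048 to 0.2944 for ATM, −0.1496 to 0.1412 for RAD50, −0.0452 to 0.1259 for MRE11, −0.1079 to 0.0482 for PRKDC, −0.2137 to 0.0194 for OGG1, −0.0465 to 0.0129 for UNG, −0.3749 to 0.3373 for APEX1 and −0.0176 to 0.1317 for DDB2. The lowest count of a member in any library was 122, and each group had only 3 libraries.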
